A study of Homo sapiens with 2 samples.

Results

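The NOTCH genes described here are 10 of the 13137 genes in a digital gene expression table, chosen by their symbols. They are the receptors NOTCH1, NOTCH2 and NOTCH3, the ligands JAG1 and JAG2, the DNA-binding partner RBPJ and its coactivator MAML1, the target genes HES1 and HEY1, and the signalling antagonist NUMB. All 10 had a row in the table. The table compares 2 libraries of A549 cells, a human lung adenocarcinoma line, and each was made from 4 µg of total RNA after 4 days with doxycycline. One is labelled shRNA-SOX2 and comes from the polyclonal line A549-H1tetO-shRNA-SOX2, in which doxycycline turns on a single hairpin against SOX2. The other, shRNA-Con, comes from A549-H1tetO-shRNA-Con, which carries a scrambled hairpin and also received doxycycline, so that the lentiviral vector, its selection and the drug were common to both. Neither an uninduced nor an uninfected library was analysed here. The value columns carry the short names S1 and SC, and SC was read as shRNA-Con and S1, the column left, as shRNA-SOX2.

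NOTCH receptors are single-pass membrane proteins that are activated by ligands on neighbouring cells. Binding of a Jagged or Delta ligand exposes the receptor to cleavage, first by an ADAM protease and then by gamma-secretase, and the freed intracellular part enters the nucleus, binds RBPJ and recruits Mastermind coactivators such as MAML1. Its best known targets are the HES and HEY genes, whose products are basic helix-loop-helix repressors. NUMB is an endocytic adaptor that lowers NOTCH signalling. In the airway the pathway guides the choice between secretory, ciliated and neuroendocrine fates, and its receptors have been studied as oncogenes and as tumour suppressors in different lung cancers.

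Digital gene expression counts short sequence tags taken from polyadenylated mRNA. The gene tags numbered 2304184 in shRNA-Con against 2093816 in the library labelled shRNA-SOX2. The targeted gene was not lower in the library labelled for its knockdown. SOX2 had 16 tags in shRNA-Con against 23 in the library labelled shRNA-SOX2 (ratio 1.58, 95% interval 0.800 to 3.20). This goes against the label. Every direction below is thus a difference between 2 labelled libraries and not an effect of a shown loss of SOX2 mRNA. At 16 control tags only a count of 0 would have been called lower. SOX2-OT overlaps SOX2 on the same strand, and tags could be shared between them. The authors reported silencing of SOX2 in this line by Western blotting, which measures protein. Both libraries had genes of an A549 epithelium, each pair of counts given in the order shRNA-Con and then the library labelled shRNA-SOX2. KRT18, a simple epithelial keratin, had 10318 and 7887 tags, and AKR1B10, an aldo-keto reductase that is high in this line, 6039 and 4581. Of 7 A549 genes 6 had a row. Of the other epithelial markers, KRT8 had 7702 and 12729 tags, KRT7 3899 and 1606, and KRT19 35 and 127. The remaining ones, named after their values were seen, were scarce. CDH1 had 50 and 50 tags, EPCAM 8 and 4, and CLDN4 0 and 2. Of 12 markers of blood, vessels and stroma, 6 had a row, and COL1A1 with 44 and 43 tags had the most. Of 8 markers of alveolar type II cells 3 had a row, and ABCA3 was the only one with more than 6 tags in a library.

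With 1 library per condition there was no spread between replicates. Each gene was therefore compared by Fisher's exact test (two-sided) of its tags against all remaining gene tags, with p-values adjusted over the 13137 genes by the method of Benjamini and Hochberg, and a gene was called at an adjusted p under 0.001. What is tested is thus a pair of libraries rather than the conditions. Reads without molecular identifiers are not independent molecules, and the intervals describe counting error alone. By this rule 9.53% of all genes were called higher and 12.2% lower in the library labelled shRNA-SOX2. None of the 10 NOTCH genes was called (0 of 10), and 3 of them, NOTCH2, NOTCH3 and NUMB, had an unadjusted p under 0.05 and an adjusted p under 0.05, a level that 37.3% of all genes passed. In bulk RNA, fewer cells that express a gene and less RNA per cell cannot be told apart.

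Ordered by level, JAG1 stood first in both libraries and HES1 second. Levels are given in CPM, the tags of a gene scaled to 1000000 gene tags in a library. JAG1 had 104 CPM in shRNA-Con against 110 in the library labelled shRNA-SOX2, and HES1 had 46.0 and 49.2. In shRNA-Con, JAG1, HES1 and the group that followed had exact Poisson intervals apart from each other, whereas the levels of NOTCH2, NUMB, MAML1 and NOTCH3, between 20.8 and 16.5 CPM, overlapped from each gene to the next. RBPJ, JAG2, NOTCH1 and HEY1 came last there, between 6.94 and 1.74 CPM, again with overlapping neighbours. In the library labelled shRNA-SOX2, NOTCH2 with 34.4 CPM stood apart from MAML1 with 14.8, and its interval reached that of HES1. NOTCH3, which was next to MAML1 in shRNA-Con, had 5.25 CPM here and lay among NOTCH1, JAG2 and HEY1. Tag counts are not taken to grow with the length of an mRNA, so no length correction was made. Whether each mRNA gives a tag that can be counted is not known here, which limits the order of levels between genes. The whole set held 561 tags in shRNA-Con against 511 in the library labelled shRNA-SOX2, which is 243 and 244 CPM.

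**Figure D1:**
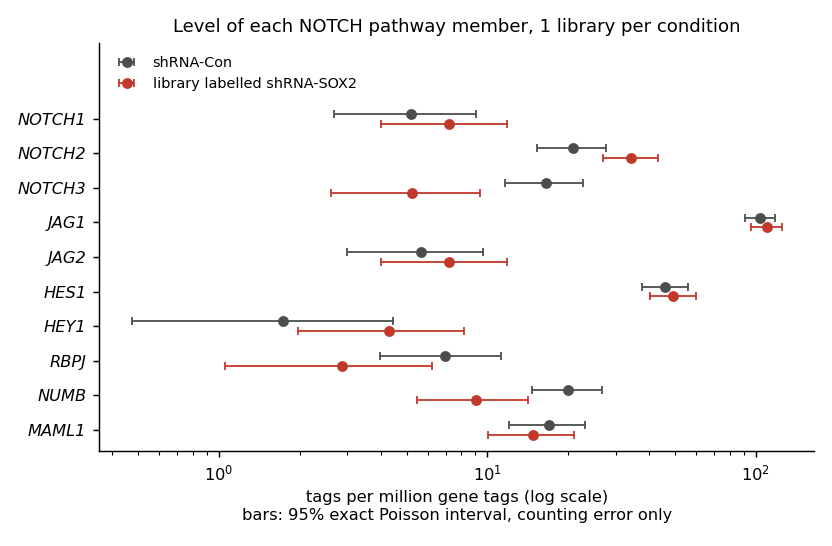
Level of each of the 10 NOTCH genes in CPM (horizontal log axis), with 1 point per library and its 95% exact Poisson interval as a bar. JAG1 (104 and 110) and HES1 (46.0 and 49.2) lie highest, and the pair of points is farthest apart for NOTCH3 (16.5 and 5.25).

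The receptors did not share a direction. NOTCH3 (Entrez Gene ID 4854, minus strand of chromosome 19 in GRCh38, 15159038 to 15200981) had 38 tags in shRNA-Con against 11 in the library labelled shRNA-SOX2. Its tags were thus fewer in the latter by a log2 ratio of -1.65 (ratio 0.319, 95% interval 0.147 to 0.636), with an adjusted p of 0.00197 in Fisher's exact test. The threshold lay 2 tags away, since a count of 9 or fewer would have been called. With the libraries scaled by their clean tags, the basis of the authors' TPM, the log2 ratio was -1.76 and NOTCH3 was called (adjusted p = 0.000661, Fisher's exact test). With edgeR's TMM factors or the median ratio it was not.

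NOTCH2 (4853, minus strand of chromosome 1, 119911553 to 120069626) had 48 tags in shRNA-Con against 72 in the library labelled shRNA-SOX2. Its log2 ratio was 0.72 (ratio 1.65, 95% interval 1.13 to 2.43), with an adjusted p of 0.0237 in Fisher's exact test. NOTCH2 has partial copies, which the GENCODE annotation lists as NOTCH2NLA and NOTCH2P1, and tags could be shared between them. NOTCH1 (4851, minus strand of chromosome 9, 136494433 to 136545786) was the scarcest receptor in shRNA-Con, with 12 tags against 15 in the library labelled shRNA-SOX2. This gave a log2 ratio of 0.46, with a 95% interval of the ratio from 0.601 to 3.22 that holds both a loss and a gain. At 12 control tags no lower count could have been called, because even 0 tags would have had a p of 0.000563, above the largest called p of 0.000217. A reduction of NOTCH1 mRNA of any size was therefore not detectable by this rule at this depth. An antisense gene overlaps NOTCH1, and whether tags were counted by strand is not given in the sources used here. NOTCH4 was not analysed here.

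The receptors together had the same number of tags in each library, 98 and 98. Within this sum the shares do not depend on how the libraries are scaled. NOTCH3 made up 38.8% of the receptor tags in shRNA-Con (95% exact binomial interval 29.1% to 49.2%) and 11.2% in the library labelled shRNA-SOX2 (5.74% to 19.2%). NOTCH2 made up 49.0% (38.7% to 59.3%) and 73.5% (63.6% to 81.9%). For both genes the intervals of the libraries did not overlap. The shares of a library sum to the whole, so a lower NOTCH3 share by itself raises the others, and these are not separate results. NOTCH1 made up 12.2% (6.49% to 20.4%) and 15.3% (8.83% to 24.0%), which overlapped. NOTCH2 was thus the most frequent receptor in both libraries, and NOTCH3 was second in shRNA-Con and lay beside NOTCH1 in the library labelled shRNA-SOX2. These shares were examined with the NOTCH3 difference already known and carry no test.

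**Figure D2:**
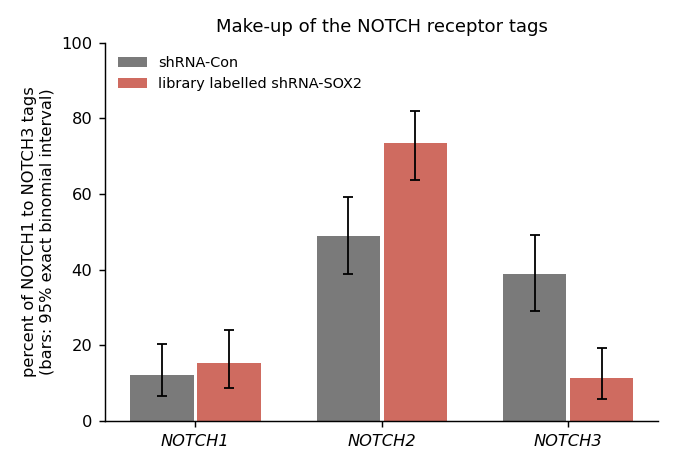
Percent of the 98 NOTCH1, NOTCH2 and NOTCH3 tags that belonged to each receptor in shRNA-Con (grey) and in the library labelled shRNA-SOX2 (red), with 95% exact binomial intervals as error bars. The NOTCH3 bars read 38.8% and 11.2% and the NOTCH2 bars 49.0% and 73.5%, while the NOTCH1 bars overlap within their intervals.

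Among the ligands, JAG1, which activates NOTCH receptors on neighbouring cells, was measured with the most precision of the set. JAG1 (182, minus strand of chromosome 20, 10637684 to 10673999) had 239 tags in shRNA-Con against 230 in the library labelled shRNA-SOX2. The ratio was 1.06 with a 95% interval from 0.880 to 1.27. Given its control count, an observed ratio of 0.677 or lower or 1.38 or higher would have been called for JAG1. Because of counting error, a true difference of that size would not always have been called. The sign of its log2 ratio depended on the scaling, 0.08 with gene tags and -0.03 with clean tags. An antisense gene overlaps JAG1 too. JAG2 (3714, minus strand of chromosome 14, 105140981 to 105168824), a second ligand of the same class, had 13 and 15 tags, a ratio of 1.27 (95% interval 0.564 to 2.90). JAG2 made up 5.16% of the Jagged tags in shRNA-Con (2.78% to 8.66%) and 6.12% in the library labelled shRNA-SOX2 (3.47% to 9.90%). Like NOTCH1, it had too few tags for a lower count to be called. A processed transcript on the same strand, AL512356.1, overlaps JAG2, and tags could be shared between them.

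**Figure D3:**
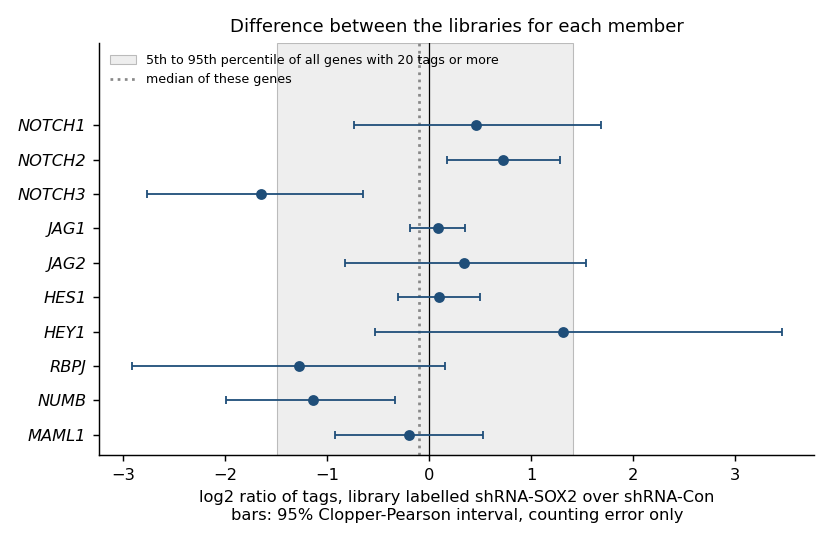
Log2 ratio of tags for each of the 10 NOTCH genes (horizontal axis), library labelled shRNA-SOX2 over shRNA-Con, with 95% Clopper-Pearson intervals that cover counting error. The shaded band is the 5th to 95th percentile of all 10045 genes with at least 20 tags (-1.496 to 1.41). NOTCH3 (-1.65) lies left of the band, and the intervals of NOTCH2, NOTCH3 and NUMB do not reach 0.

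In the nuclear complex, RBPJ, the DNA-binding partner of the cleaved receptor, had 16 tags in shRNA-Con against 6 in the library labelled shRNA-SOX2. RBPJ (3516) spans 26163455 to 26435131 of chromosome 4 (plus strand). Its log2 ratio was -1.28 (ratio 0.413, 95% interval 0.132 to 1.11; adjusted p = 0.173, Fisher's exact test), and no count above 0 would have been called lower. GENCODE lists 4 pseudogenes of RBPJ, so its tag count is uncertain. MAML1 (9794, plus strand of chromosome 5, 179732850 to 179777286), which bridges the receptor and histone acetyltransferases, had 39 and 31 tags. Its ratio was 0.875 with a 95% interval from 0.528 to 1.44. NUMB (8650, minus strand of chromosome 14, 73275107 to 73458617) had 46 tags in shRNA-Con against 19 in the library labelled shRNA-SOX2. Its log2 ratio was -1.14 (ratio 0.455, 95% interval 0.252 to 0.791; adjusted p = 0.0130, Fisher's exact test), and a count of 14 or fewer would have been called. NUMB and NOTCH3, an antagonist and a receptor of the pathway, thus both had lower counts in the library labelled shRNA-SOX2. A processed transcript on the same strand, AC005280.3, overlaps NUMB, and tags could be shared between them.

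**Figure D4:**
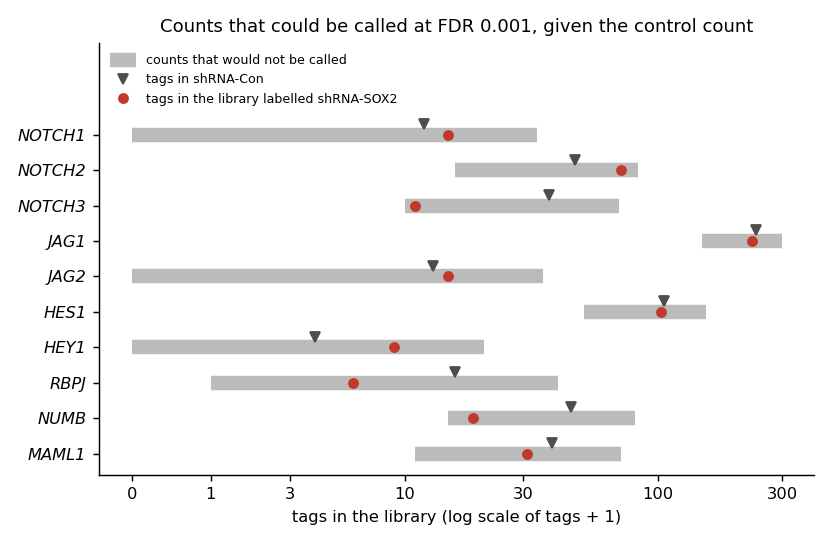
Tags of each NOTCH gene in shRNA-Con (grey triangles) and in the library labelled shRNA-SOX2 (red points), on a log axis of tags + 1. The grey band spans the counts in the latter library that would not be called at an adjusted p of 0.001 given the control count. Every red point lies inside its band, NOTCH3 nearest to an edge with 11 tags against a limit of 9, and the bands of NOTCH1, JAG2 and HEY1 reach down to 0.

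HES1 and HEY1 are the readouts of the pathway in the set. HES1 (3280, plus strand of chromosome 3, 194136145 to 194138732) had 106 tags in shRNA-Con against 103 in the library labelled shRNA-SOX2. The ratio was 1.07 with a 95% interval from 0.807 to 1.42, and a ratio of 0.529 or lower would have been called. Its log2 ratio was 0.10 with gene tags and -0.02 with clean tags, so its sign depended on the scaling. HEY1 (23462) had 4 and 9 tags, a ratio of 2.48 (95% interval 0.691 to 11), and only 22 tags or more would have been called. HEY1 made up 3.64% of the tags of both targets in shRNA-Con (0.9995% to 9.05%) and 8.04% in the library labelled shRNA-SOX2 (3.74% to 14.7%).

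The RBPJ core TGGGAA was searched on both strands in RefSeq windows of 300 bases around gene starts (GRCh38.p14), since the HES and HEY genes are the classical targets of the RBPJ complex. The longer form GTGGGAA holds the same core. Of all 35116 windows 24.0% held TGGGAA and 6.25% held GTGGGAA. Of the 15 genes looked up, the 10 NOTCH genes and 5 further HES and HEY genes, 14 had a window and HEY1 did not. Outside RBPJ itself, TGGGAA was found in the windows of HES1, HES4 and HEYL. The 250 bases before the start of these 3 genes and of NOTCH3 are shown 5′ to 3′, with TGGGAA or its reverse complement in capitals, at chr3:194135898-194136147 for HES1 (plus strand), chr1:1000098-1000347 for HES4 (minus strand), chr1:39639644-39639893 for HEYL (minus strand) and chr19:15200996-15201245 for NOTCH3 (minus strand).
HES1: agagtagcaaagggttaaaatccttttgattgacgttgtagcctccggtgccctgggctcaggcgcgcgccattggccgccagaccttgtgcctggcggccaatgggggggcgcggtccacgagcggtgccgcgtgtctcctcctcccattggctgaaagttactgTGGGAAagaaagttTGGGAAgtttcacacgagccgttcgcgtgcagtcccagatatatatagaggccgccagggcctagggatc
HES4: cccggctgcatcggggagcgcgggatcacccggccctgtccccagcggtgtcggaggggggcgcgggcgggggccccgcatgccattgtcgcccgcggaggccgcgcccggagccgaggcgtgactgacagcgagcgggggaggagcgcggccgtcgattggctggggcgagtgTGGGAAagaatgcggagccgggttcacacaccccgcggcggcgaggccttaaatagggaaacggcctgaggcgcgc
HEYL: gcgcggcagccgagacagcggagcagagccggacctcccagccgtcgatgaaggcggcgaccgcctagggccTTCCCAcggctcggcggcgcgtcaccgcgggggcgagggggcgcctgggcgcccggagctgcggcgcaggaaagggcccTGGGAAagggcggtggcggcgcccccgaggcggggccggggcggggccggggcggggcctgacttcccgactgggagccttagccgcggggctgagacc
NOTCH3: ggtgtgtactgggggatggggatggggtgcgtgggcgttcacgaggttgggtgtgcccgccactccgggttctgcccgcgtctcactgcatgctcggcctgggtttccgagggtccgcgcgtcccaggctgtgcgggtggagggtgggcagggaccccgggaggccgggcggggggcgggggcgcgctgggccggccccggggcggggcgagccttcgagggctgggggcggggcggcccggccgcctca

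In HES1 the cores start 84 and 70 bases before the gene start, both in the same orientation. In HES4 a single core starts 76 bases before it, and in HEYL the cores lie 178 and 99 bases before it in opposite orientations. The NOTCH3 window holds neither core, nor the SOX cores ACAAAG and ACAATG, which 16.1% and 10.8% of all windows hold. ACAAAG or its reverse complement was found in windows of RBPJ, HES2 and HES6, and ACAATG or its reverse complement in windows of RBPJ and HES4, while the windows of the other genes looked up held neither. HES1 with a pair of cores had 106 and 103 tags. HES4, named here after its values were seen, had 37 in shRNA-Con against 10 in the library labelled shRNA-SOX2 (log2 ratio -1.75; adjusted p = 0.0015, Fisher's exact test), which did not reach the threshold. With clean tags HES4 was called. HEYL, also named after its values were seen, had 24 and 28 tags. None of HES1, HES4 and HEYL was thus called with gene tags, and a match in these letters is not a shown binding site.

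The wider pathway was described from 11 lists of 93 genes by role, of which 80 had a row. In these lists 6 genes (7.5%) were called higher and 10 (12.5%) lower in the library labelled shRNA-SOX2, beside 9.53% and 12.2% of all genes. The median log2 ratio of the 71 pathway genes with at least 20 tags was -0.20, beside -0.10 for all 10045 such genes. Of these 71, 9 were at least 2-fold higher (12.7%, beside 10.4% of all such genes) and 12 at least 2-fold lower (16.9%, beside 13% of all such genes). The lower ones include NOTCH3, RBPJ and NUMB, 3 of the 9 set members with at least 20 tags. The split depended on the scaling: with TMM factors or the median ratio 8 of 16 calls were lower, and with clean tags 15 of 20.

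Of the genes that act on the receptor outside the nucleus, those that add sugars to its extracellular repeats had 2 of 6 called, both lower (33.3%, beside 12.2% of all genes). RFNG, radical fringe, which elongates O-fucose, fell from 162 tags to 48 (log2 ratio -1.62; adjusted p = 3.17e-12, Fisher's exact test). EOGT, listed in the table as C3orf64, which adds O-linked N-acetylglucosamine, fell from 29 to 5 (-2.40; adjusted p = 0.000457, Fisher's exact test). Of the 9 proteases 1 was called lower (11.1%, beside 12.2% of all genes). It was NCSTN, the nicastrin subunit of gamma-secretase, which fell from 261 to 160 tags (log2 ratio -0.57). The other 8 proteases lay within 2-fold, as did NCSTN, and NCSTN lost its call with TMM factors or the median ratio. Of 17 genes of endocytosis and ubiquitin ligases 1 was called lower and 1 higher (5.88% each, beside 12.2% and 9.53% of all genes). EPN1, an endocytic adaptor, fell from 475 to 304 tags (-0.51). FBXW7, the F-box protein that marks the NOTCH intracellular domain for degradation, rose from 15 to 47 (1.79; adjusted p = 5.59e-05, Fisher's exact test). Of 4 ligands outside the Jagged and Delta class 1 was called higher (25%, beside 9.53% of all genes). It was CNTN1, a neural adhesion molecule, which rose from 33 to 85 tags (1.503). Neither of the Numb proteins was called, and NUMBL had 61 and 57 tags.

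Inside the nucleus 5 of 14 corepressors were called, and these 5 were lower (35.7%, beside 12.2% of all genes). NCOR1, a scaffold of histone deacetylase complexes, fell from 109 tags to 42 (log2 ratio -1.24; adjusted p = 5.61e-06, Fisher's exact test). SPEN, the RBPJ-bound corepressor also known as SHARP, fell from 78 to 30 (-1.24). TLE1, a Groucho protein recruited by HES factors, fell from 316 to 104 (-1.47; adjusted p = 2.17e-20, Fisher's exact test). HDAC2, a histone deacetylase, fell from 404 to 261 (-0.49), and lost its call with TMM factors or the median ratio. The median log2 ratio of the 12 corepressors with at least 20 tags was -0.39, beside -0.10 for all genes with that many. HDAC1, CTBP1 and CTBP2, given for comparison after their values were seen, with 191, 302 and 281 tags in shRNA-Con, had 175, 274 and 257 in the library labelled shRNA-SOX2. These proteins serve many other transcription factors as well as RBPJ. Of the 9 genes of the nuclear complex 1 was called lower and 1 higher (11.1% each, beside 12.2% and 9.53% of all genes). They were the acetyltransferase CREBBP, which fell from 236 to 118 tags (log2 ratio -0.86), and the acetyltransferase KAT2A, which rose from 195 to 266 (0.59). KAT2A lost its call with clean tags.

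**Figure D5:**
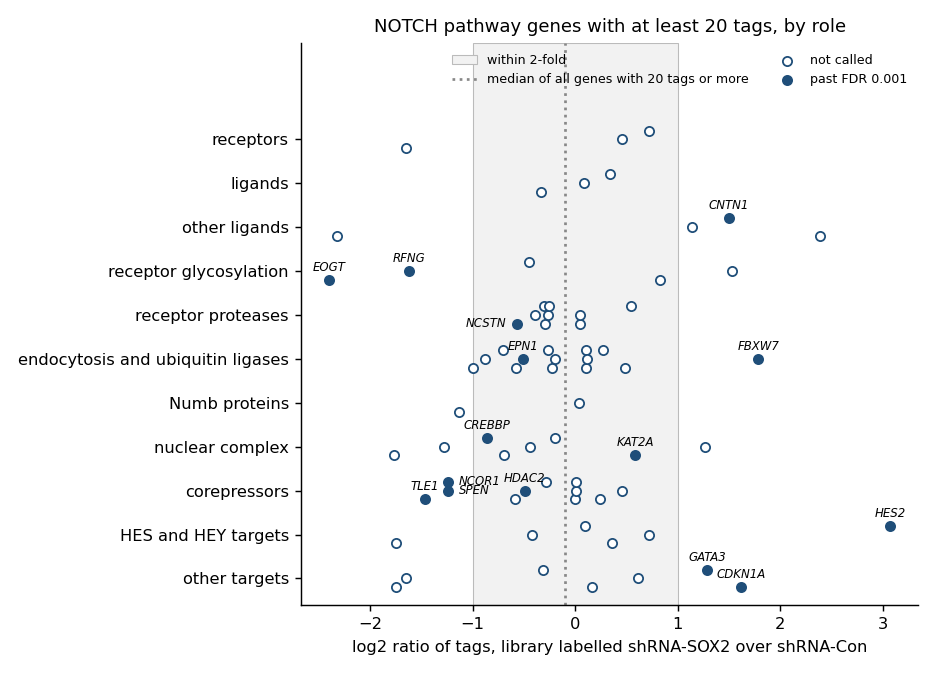
Log2 ratio of tags, library labelled shRNA-SOX2 over shRNA-Con, for pathway genes with at least 20 tags, 1 row per role, with 1 corepressor not drawn. Filled points are genes past an adjusted p of 0.001, and open points are the others. The 4 filled corepressors drawn lie left of 0, from -1.47 for TLE1 to -0.49 for HDAC2, and HES2 is drawn with its 2 control tags raised to 3.

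Of the 7 HES and HEY genes with a row 1 was called higher (14.3%, beside 9.53% of all genes), and this was HES2. It had 2 tags in shRNA-Con against 23 in the library labelled shRNA-SOX2, which is a ratio of 12.7 with a 95% interval from 3.13 to 111 (adjusted p = 3.60e-05, Fisher's exact test). The 7 genes together had 206 and 202 tags, and HES1 held most of them in both. Of 8 genes with a row that are described as NOTCH targets in some cells, 2 were called higher (25%, beside 9.53% of all genes). CDKN1A, the cell cycle inhibitor p21, rose from 696 to 1941 tags (log2 ratio 1.62; adjusted p = 6.88e-160, Fisher's exact test). GATA3, a transcription factor, rose from 36 to 80 (1.29). Both CDKN1A and GATA3 also answer to many other signals. In the same list 2 genes, NOTCH3 and HES4, were past 2-fold lower but not called with gene tags. Of the targets not called, chosen after their values were seen, CCND1, cyclin D1, had 894 and 913 tags, and NRARP, a feedback inhibitor of the pathway, had 11 and 7.

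Airway lineage genes that NOTCH signalling is known to balance were mostly scarce. Of 11 neuroendocrine genes 5 had a row, and 1 of these was called higher (20%, beside 9.53% of all genes). It was CHGB, a granin of secretory granules, which rose from 30 tags to 144 (log2 ratio 2.40; adjusted p = 3.63e-20, Fisher's exact test). The next genes were chosen after their values were seen. UCHL1, a ubiquitin hydrolase, had 4513 and 4147 tags, ENO2 had 113 and 97, and the others had at most 7 tags in a library. Of 6 secretory and ciliated genes 1 had a row. It was MUC5B, a gel-forming mucin, which fell from 136 tags to 49 (-1.33; adjusted p = 5.58e-08, Fisher's exact test). Epithelial keratins also differed between the libraries. KRT8 (7702 and 12729 tags) and KRT19 (35 and 127) were called higher and KRT7 (3899 and 1606) and KRT18 lower. That is 2 of 7 epithelial markers in each direction (28.6%), beside 9.53% and 12.2% of all genes. Of 6 genes known to be high in A549 with a row, ALDH1A1 (7035 and 14268) and NQO1 (4179 and 6200) were called higher, and AKR1B10, AKR1C2 (770 and 286) and AKR1C3 (3385 and 1492) lower. The part of these differences in the values of the NOTCH genes was not tested.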

How the data were processed

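Tag counts per Entrez Gene ID, deposited without normalization, were made for the authors by the Beijing Genomics Institute from mRNA captured on oligo(dT). The submitters' processing notes name the build hg19, and an aligner, a tag enzyme and an annotation are not given in the sources used here. The authors' deposited TPM is the count scaled to 1000000 clean tags, with 0 written as 0.01, and served here only to work out the clean tags. The deposited log2 ratios, p-values and FDR of the authors were not used. Ratios were taken per gene tag, with counts under 3 set to 3 for log2 values, and tested by Fisher's exact test, adjusted by Benjamini-Hochberg over all genes (Python 3.11.15, scipy 1.17.1). Intervals are 95% and cover counting error only, and a count of 0 allows 1.43 CPM in the library labelled shRNA-SOX2 and 1.30 in shRNA-Con. No gene had a single tag in a library, so a count of 0 or a missing row may hide single tags. Scaling factors and edgeR's exact test came from R 4.3.3, edgeR 4.0.16 and DESeq2 1.42.0.

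The genes and lists were chosen with earlier results of these data known. Named are the 10 NOTCH genes, SOX2 and, from the other lists, every gene past FDR 0.001, every gene with at least 100 tags and a 2-fold difference, every gene at 0 in a library with at least 10 tags in the other (0 genes) and, in a list with none of these, the gene with the most tags. Genes named outside this rule are marked in the text as chosen after their values were seen. Symbols of 22 genes turned into dates were restored from the Gene ID. The 19 rows lacking a symbol, 0.0535% of control gene tags, were kept in the tested table under their Gene ID. Positions are from GENCODE release 29 (GRCh38) and promoter windows from RefSeq. The values of 1 gene in the lists, which enters their counts, are not reported here. The steps were tested on simulated data.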

Additional observations from a re-analysis of the deposited data

How the results depend on the processing

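No paired analysis was possible because there was 1 library for each condition, and no library could be left out for that reason. The alternatives were scaling by clean tags, TMM factors or the median ratio, at least 10 tags, 0.5 added to each count, FDR 0.05, Wilson intervals, and the exact test of edgeR with a biological coefficient of variation set to 0.1, 0.2 or 0.4. The scalings shift every log2 ratio alike, by 0.07 with TMM factors or the median ratio and by -0.11 with clean tags. With clean tags JAG1 had -0.031 and HES1 -0.017 in place of 0.08 and 0.10, and NOTCH3 was called at -1.76. With FDR 0.05 NOTCH2 (0.72), NOTCH3 (-1.65) and NUMB (-1.14) were called. The 10 genes kept their direction and stayed uncalled under TMM factors and the median ratio. Under the tag minimum and each assumed spread they stayed uncalled, but the log2 ratios there are those of the main setting. With 0.5 added the 10 genes kept their direction, and the test was not rerun, so this setting says nothing about their calls.

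Of all genes 2849 were called, 4902 with FDR 0.05, and 1166, 113 and 0 with an assumed coefficient of 0.1, 0.2 and 0.4, where 627 genes had an unadjusted p under 0.05 at 0.4. The share of lower calls was 56.1%, against 66.6% with clean tags, 49.4% with TMM factors, 49.7% by the median ratio and 42.5% with a coefficient of 0.2. Of the 80 pathway genes 16 were called, 37 with FDR 0.05, and 6 with a coefficient of 0.1, among them CNTN1, RFNG, TLE1, HES2 and CDKN1A. With 0.2 and 0.4 the number was 0, with 18 and 4 genes at an unadjusted p under 0.05. These losses follow from the assumed spread, which these libraries cannot give. Of the 71 pathway genes with at least 20 tags 21 were past 2-fold, against 11 of 55 with 50 tags and 8 of 46 with 100 tags. The share over all genes at 50 and 100 tags is not given here, so the smaller share at a higher minimum is not read as particular to the pathway. Depth limits NOTCH1, JAG2 and HEY1, for which no lower count could be called.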
